A study of Rattus norvegicus with 2 samples.

Results

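Krüppel-like factors (KLFs) were examined in the adductor of the rat thigh after fine needle stimulation. The group comprised 10 genes chosen by name, Klf2, Klf3, Klf4, Klf5, Klf6, Klf9, Klf10, Klf11, Klf13 and Klf15, and their probe sets were found by gene symbol in the annotation of the array. All 10 were measured, among 9956 measured genes in all, and were covered by 27 of 31042 probe sets. KLFs are transcription factors with zinc fingers at their C-terminal ends, by which they bind CACCC boxes and GC-rich boxes in DNA. Some activate and others repress, through different N-terminal domains, and several compete for the same sites. In muscle tissue they are known from different cells: Klf2 and Klf4 from the lining of blood vessels, Klf5 from activated smooth muscle cells, fibroblasts and differentiating myoblasts, and Klf15 from the fibres themselves.

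The stimulated sample came from the left hindlimb of male Lewis rats (an inbred strain) weighing 275 g, where a 0.14 mm steel needle had been used for 100 pricks within a square with sides of 10 mm, and muscle was taken 24 hours later. The control sample came from the right hindlimb, which had no needle treatment, of male Lewis rats of the same stated weight. As the study's design describes it, the control was thus the other limb, not muscle of an untouched rat. The labels give neither the number nor the age of the animals, nor whether both samples came from the same ones. Each limb was represented by 1 array. The differences below have no replicate check and carry no test, and "higher" and "lower" describe these 2 samples only.

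Values are MAS5 signals, on the linear scale of the array, and log2 ratios are stimulated over control. Signals below a floor of 19.8, the median of all non-control signals, were raised to it before a ratio was taken. A fold against a raised signal is therefore a lower bound, written "at least". The brightest measured probe set stands for a gene, and the log2 ratios of its other measured ones are given beside it. The only error at hand is the disagreement between probe sets of the same gene, with an SD of 0.31 for the log2 ratio of a single probe set over 2174 genes, and of 0.36, 0.32 and 0.25 in the dimmest, middle and brightest of 3 equal parts of them. This leaves out the variation between limbs and animals. The median gene had a log2 ratio of 0.019 with the authors' scaling, 0.18 when the medians of both arrays were made equal and 0.39 with scaling to 18 bacterial and phage spike-in probe sets, so directions are best read relative to the median gene. With the shift of the spike-in scaling left in, Klf3 and Klf9 were above 0 (0.22 and 0.12). So were the list medians below that lie between -0.31 and 0. The medians of the endothelial (-0.18 and -0.27) and pericyte lists (-0.10) and of other KLF and SP factors (-0.27) stayed below 0. Genes higher and lower by at least 2-fold numbered 142 and 142 with the authors' scaling, 239 and 92 with equal medians, and 535 and 44 with the spike-ins. RNA quality, read from the 3'-to-5' signal ratio, stood at 2.43 (stimulated limb) and 2.26 (control limb) for beta-actin, 1.12 and 1.08 for Gapdh, and 2.68 and 1.65 for hexokinase, and its part in the values was not tested. All 16 muscle fibre genes examined were measured, among them Acta1, skeletal actin, named after its values were seen, at 12095 in the stimulated limb and 16712 in the control limb.

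Klf2 and Klf4 were lower in the stimulated limb, Klf5 was higher, and the other 7 lay within 2-fold. Of the 10 factors, 2 were at least 2-fold lower, against 1.43% of all measured genes, and 1 was at least 2-fold higher, also against 1.43%. At 1.5-fold the counts were 4 lower (6.94% of all genes) and 1 higher (6.59%). In all, 7 of 10 lay below 0, against 47.7% of all genes, and 3 above, against 52.3%. The median log2 ratio over the 10 was -0.37, and with spike-ins, if the shift of the median gene is left in, 0.015. Relative to the median gene, the other 3 scalings also put 2 factors lower and 1 higher by at least 2-fold. The ratio differed from 0 by more than the probe set SD for 6 of the 10, and by more than the SD of genes of like brightness for 8, Klf9 and Klf15 included. The share of all genes past these SDs was not counted, so whether 6 or 8 is unusual cannot be read from them. At the level of single probe sets, 22 of 27 were measured, against 16644 of 31042 in all. Of the 22, 15 lay below 0 and 7 above, and the same split over all measured probe sets was not counted.

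**Figure D1:**
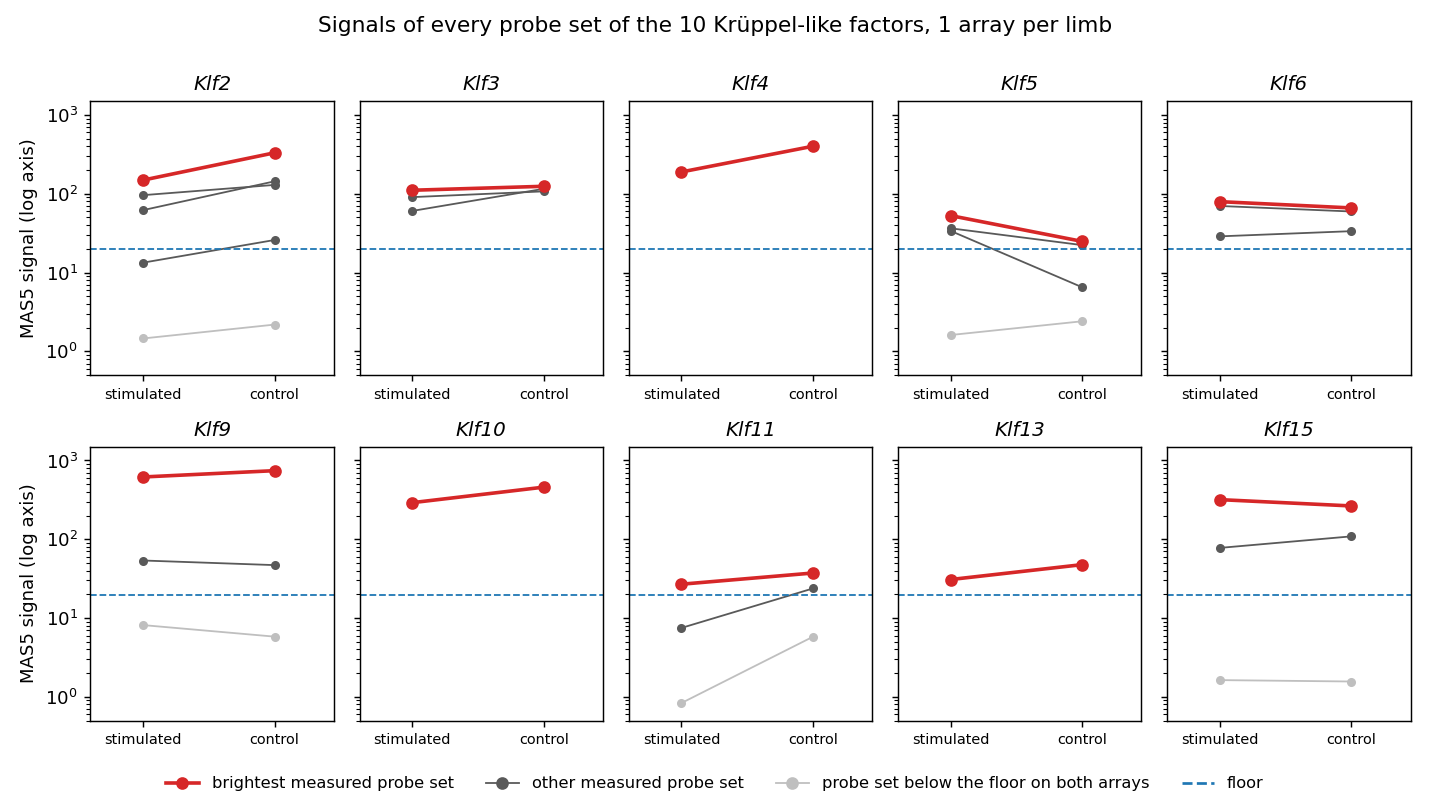
MAS5 signal (log axis) of each of the 27 probe sets in the stimulated limb (left point) and the control limb (right point), 1 array each and so no error bars; red is the brightest measured probe set, dark grey other measured ones, light grey those below the floor of 19.8 (dashed) on both arrays. The red lines of Klf2 and Klf4 lie lower on the stimulated side, that of Klf5 higher, and the lines of Klf6, Klf9 and Klf15 slope in different directions.

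Klf2 (Entrez gene 306330) is induced by blood flow in endothelium and keeps these cells in a quiescent, anticoagulant state. It is also expressed in resting T cells and monocytes. Its brightest probe set had signals of 149 in the stimulated limb and 331 in the control limb, 2.22-fold lower, with a log2 ratio of -1.15. That ratio ranked 91 from the lowest of 9956. A second probe set gave 61.9 in the stimulated limb and 144 in the control limb, 2.32-fold lower. Both thus showed a difference of over 2-fold, but the probe set that was second in brightness showed a smaller one, with 95.9 in the stimulated limb and 129 in the control limb, 1.35-fold lower. A dimmer probe set, under the floor in the stimulated limb (13.3 against 25.9), was at least 1.31-fold lower and was designed on the same sequence as the 2.32-fold one. The median over the 4 measured probe sets was -0.79, all 4 lay below 0, and the fifth was below the floor on both arrays. The sizes given by the Klf2 probe sets hence differed more than the direction. Among genes in the same quartile of signal 1.33% were at least 2-fold lower.

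Klf4 (Entrez gene 114505) acts beside Klf2 in endothelium, and it also drives the loss of contractile genes in smooth muscle cells and shapes macrophage activation. It had signals of 189 in the stimulated limb and 401 in the control limb, 2.12-fold lower, with a log2 ratio of -1.08 that ranked 115 from the lowest. Among the genes of its signal quartile, the brightest, 0.683% were at least 2-fold lower. Klf4 had a single probe set, so no other measurement stands beside this value, and RefSeq lists 1 rat pseudogene of Klf4, whose part in the signal was not tested. With equal array medians, and without reference to the median gene, Klf2 was at -0.99 and Klf4 at -0.92, both just under 2-fold, and with the spike-ins at -0.77 and -0.70.

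Endothelial markers were lower in the same sample. Of 18 listed, 15 were measured, 14 lay below 0, 4 were lower and 0 higher by at least 2-fold, with a median log2 ratio of -0.65 against 0.019 for all genes. The summed signal of the measured markers was 1137 in the stimulated limb and 1827 in the control limb. The most different were Sox18, a transcription factor of endothelium (2.91-fold lower), the VEGF receptor Flt1 (at least 2.22-fold, other probe sets -0.74 and -0.63), P-selectin, Selp (at least 2.06-fold), and the VEGF receptor Kdr (2.06-fold). Cldn5, an endothelial junction protein, was the marker above 0 at the brightest probe set, at 0.06. Erg was at -0.12, with a second probe set at 0.43. Both were named after their values were seen. No measured marker of the list was below the floor in the control limb. The part of endothelial content in the values of Klf2 and Klf4 was not tested. In muscle tissue, fewer cells of a type and less RNA per cell cannot be told apart.

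The genes known as endothelial targets of KLF2 and KLF4 were lower too, whether known to be activated or repressed by them. Of 16 measured, 16 lay below 0, 2 were lower by at least 2-fold and 8 by at least 1.5-fold, with a median of -0.60. Plvap, a protein of endothelial diaphragms, was 3.62-fold lower (93.0 in the stimulated limb, 336 in the control limb) and Angpt2, a ligand that destabilises vessels, 2.20-fold lower. Nostrin, a trafficking protein of endothelial nitric oxide synthase, was 1.65-fold lower, and Calcrl, the receptor partner for adrenomedullin, at least 1.59-fold lower with a second probe set at 0.12. Nos3, the nitric oxide synthase that KLF2 is known to activate, was at least 1.58-fold lower (13.6 against 31.3). Thbd, thrombomodulin, another gene activated by KLF2, was at -0.58, with 2 further probe sets at -0.92 and -0.85. Vcam1 and Sele, adhesion molecules that KLF2 is known to repress, were lower as well, Vcam1 by 1.24-fold and Sele by at least 1.54-fold. Nos3, Thbd, Vcam1 and Sele were chosen after their values were seen. Tek belongs to both this list and the marker list.

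The kinase module that is known to switch on Klf2 and Klf4 through MEF2 factors was listed together with regulators of it. These regulators were Ccm2, Krit1, Pdcd10 and Heg1, which are not kinases, so the counts do not describe activators alone. The listed genes lay on both sides of 0. Of the 10 measured, 5 lay below 0 and 5 above, and the median was 0.010. At the brightest probe set 0 differed by 1.5-fold, with Mapk7 counted at its lower bound, so its full difference may be larger. Mef2d was 1.38-fold lower (another probe set -0.34) and Map2k5, the kinase upstream of ERK5, 1.37-fold higher. Mapk7, which encodes ERK5, was at least 1.34-fold higher (26.4 in the stimulated limb, 5.69 in the control limb), and Heg1, an endothelial receptor, was 1.22-fold lower, with a larger difference at its other probe set (-0.90). The MEF2 gene Mef2a, named after its values were seen, was at 0.04, with 3 others between -0.89 and -0.10.

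**Figure D2:**
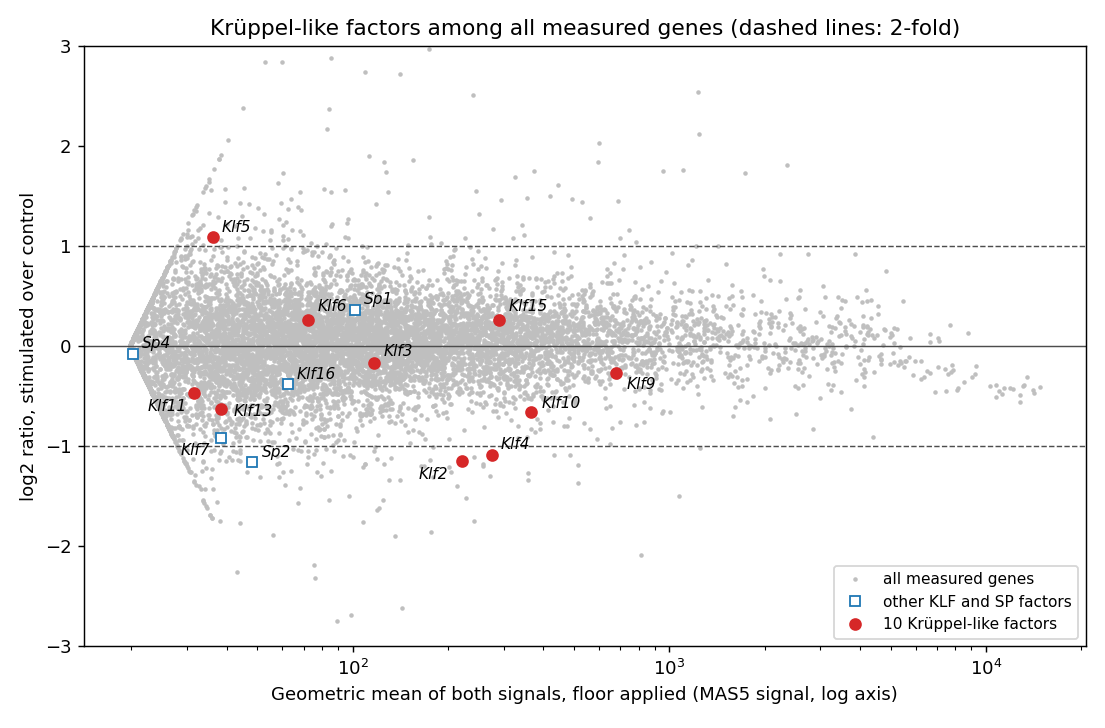
Log2 ratio (stimulated over control) against the geometric mean signal of both arrays (log axis) for all measured genes (grey), the 10 Krüppel-like factors (red) and 5 other KLF and SP factors (open squares), with dashed lines at 2-fold; 3 genes lie outside the axis range. Klf2 (-1.15) and Klf4 (-1.08) sit at the lower edge of genes of like signal, and Klf5 (1.09) at the upper left, close to the edge that the floor sets for dim genes.

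Klf5 (Entrez gene 84410), which promotes proliferation and is switched on in smooth muscle cells and fibroblasts of injured vessels, was the factor that differed upwards. Its brightest probe set had signals of 52.8 in the stimulated limb and 24.8 in the control limb, 2.13-fold higher, with a log2 ratio of 1.09 that ranked 112 from the highest of 9956. A second probe set gave 36.4 in the stimulated limb and 22.3 in the control limb, 1.63-fold higher. Another gave 33.7 in the stimulated limb, against 6.50 in the control limb, which is under the floor, at least 1.71-fold higher. All 3 measured probe sets were thus higher, though both control signals above the floor lay close to it. The fourth was below the floor on both arrays. Klf5 belonged to the dimmest quartile of genes, in which 1.77% were at least 2-fold higher, and the difference was 0.70 on the log2 scale with a pseudocount of 20 in place of the floor. RefSeq lists 2 rat pseudogenes of Klf5, whose part in the signal was not tested.

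Promoters are shown for Klf5 and, beside it, for Klf6 and Klf9, because KLFs bind CACCC and GC boxes, which lie in many promoters, their own among them. They are from RefSeq (build GRCr8), which matched 7 of the 10 factors, and these 3 start at the outermost annotated start of their gene. Each run holds 250 bases before and 50 after the start, 5′ to 3′ on the gene's strand, at chr15:82471831-82472130 (Klf5, plus strand), chr17:69458429-69458728 (Klf6, minus strand) and chr1:230126396-230126695 (Klf9, plus strand). Capitals mark every match to CACCC or GGGCGG on either strand.
Klf5: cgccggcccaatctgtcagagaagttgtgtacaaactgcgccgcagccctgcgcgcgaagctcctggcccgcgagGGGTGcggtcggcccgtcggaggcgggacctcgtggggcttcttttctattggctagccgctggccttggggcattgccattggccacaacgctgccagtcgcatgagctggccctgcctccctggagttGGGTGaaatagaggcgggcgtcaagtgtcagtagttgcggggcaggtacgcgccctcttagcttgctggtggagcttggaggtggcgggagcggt
Klf6: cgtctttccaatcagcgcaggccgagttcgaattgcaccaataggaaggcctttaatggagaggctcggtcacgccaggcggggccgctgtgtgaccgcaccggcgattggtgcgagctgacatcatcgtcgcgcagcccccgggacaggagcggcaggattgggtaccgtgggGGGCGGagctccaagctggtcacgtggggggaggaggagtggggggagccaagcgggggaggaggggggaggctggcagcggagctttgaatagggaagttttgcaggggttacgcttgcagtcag
Klf9: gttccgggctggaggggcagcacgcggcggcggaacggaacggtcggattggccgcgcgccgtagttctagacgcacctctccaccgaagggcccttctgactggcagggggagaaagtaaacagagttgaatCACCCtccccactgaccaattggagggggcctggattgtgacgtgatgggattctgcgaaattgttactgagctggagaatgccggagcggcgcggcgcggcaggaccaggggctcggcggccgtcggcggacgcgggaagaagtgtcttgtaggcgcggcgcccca
The Klf5 window held 2 CACCC boxes, both on the opposite strand (read as GGGTG), with first bases at -175 and -45 from the start, and 0 GC boxes. Klf6 had 0 CACCC boxes and 1 GC box, at -76, and Klf9 had 1 CACCC box, at -117, and 0 GC boxes. No match to 1 motif overlapped a match to the other. Of 27457 rat promoter windows of the same length, 55.1% held a CACCC box and 34.9% a GC box, so such matches are common.

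Klf6 (Entrez gene 58954), a factor induced by tissue injury that activates genes of TGF-beta signalling, stayed within the probe set SD. It had signals of 79.3 in the stimulated limb and 66.0 in the control limb, 1.20-fold higher. Its second probe set had 69.9 in the stimulated limb and 59.5 in the control limb, 1.18-fold higher, while the third had 28.8 and 33.5, 1.16-fold lower. The probe sets of Klf6 therefore pointed both ways, each by a small amount.

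Genes tied to KLF4 and KLF5 in smooth muscle were mostly below 0, 9 of 12 measured, with a median of -0.25, and 1 lower and 0 higher by at least 2-fold. Acta2, smooth muscle actin, was 2.28-fold lower (340 in the stimulated limb, 775 in the control limb), the receptor Pdgfrb at least 1.40-fold and Tagln, transgelin, 1.39-fold lower. Smtn, smoothelin, was 1.35-fold higher, with a second probe set at -0.47. Smooth muscle and pericyte markers, which share 5 genes with that list, had a median of -0.47 over 11 measured, with 10 below 0, 1 lower by at least 2-fold (Acta2) and a summed signal of 1438 in the stimulated limb and 2297 in the control limb. Abcc9, a potassium channel subunit of mural cells, was 1.67-fold lower, with other probe sets at -0.51 and -0.09, and the adhesion molecule Mcam 1.61-fold lower, with another at -1.31. With the authors' scaling, Klf5 thus lay on the other side of 0 from the medians of both lists. With spike-in scaling these medians were 0.14 for the smooth muscle genes and -0.10 for the markers.

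Klf10, Klf11 and Klf13 repress genes through the corepressor Sin3A, and Klf10 and Klf11 were first known as early genes induced by TGF-beta. All 3 were lower in the stimulated limb, by less than 2-fold. Klf10 (Entrez gene 81813) had signals of 291 in the stimulated limb and 459 in the control limb, 1.57-fold lower, from its only probe set. Klf13 (Entrez gene 499171), known in T cells as an activator of the chemokine gene Ccl5, had 30.8 in the stimulated limb and 47.6 in the control limb, 1.55-fold lower, also from a single probe set. Against the SD of genes of like brightness, the difference was 2.67 times for Klf10, a bright gene, and 1.75 times for Klf13, a dim one. Klf11 (Entrez gene 313994) had 26.9 in the stimulated limb and 37.3 in the control limb, 1.39-fold lower. A second Klf11 probe set, at 7.49 in the stimulated limb and 23.8 in the control limb, was at least 1.20-fold lower, and the third was below the floor on both arrays. Klf11 and Klf13 belonged to the dimmest quartile, in which 11.6% of genes were at least 1.5-fold lower, and Klf10 to the brightest, with 2.73%.

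Genes of TGF-beta signalling went both ways, with 10 of 18 measured below 0 and 8 above and a median of -0.056. The co-receptor Tgfbr3 was 2.09-fold lower, with a second probe set at -0.02, and Ltbp1, which stores the ligand in the matrix, was 2.05-fold lower. Tgif1, a repressor of SMAD targets, was 1.65-fold higher and the type I receptor Tgfbr1 1.59-fold higher. The ligand gene Tgfb1 was at 115 in the stimulated limb and 90.4 in the control limb, a log2 ratio of 0.34. Among cofactors of the KLFs, 14 were measured, 8 lay below 0, 0 differed by 1.5-fold at the brightest probe set, and the median was -0.023. The ubiquitin ligase Wwp1, which acts on Klf2 and Klf5, was 1.37-fold lower with a second probe set at -0.03. Fbxw7, the recognition subunit of another ligase, was 1.37-fold higher with a second at -0.55. Sin3b was 1.36-fold higher with a second at -0.08, and Hdac1, a histone deacetylase, 1.34-fold lower with a second at -0.23. The corepressor Sin3a itself had probe sets at -0.37 and 0.44. The cofactor Kat2b was 1.17-fold lower, with a larger difference at its second probe set (-0.85). Tgfb1, Sin3a, Kat2b and, below, Ctbp1 and Ctbp2 were chosen after their values were seen.

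Klf3 (Entrez gene 114845) represses genes by recruiting the corepressor CtBP, and in muscle it is known as a partner of SRF. Its probe sets were of like brightness and gave different sizes. The brightest had 111 in the stimulated limb and 124 in the control limb, 1.12-fold lower, which is less than the probe set SD. The next had 90.5 in the stimulated limb and 107 in the control limb, 1.18-fold lower, and the third had 60.5 and 115, 1.91-fold lower. All 3 lay below 0, and the corepressor genes Ctbp1 and Ctbp2 were at 0.02 and 0.17.

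Klf9 and Klf15 are induced by glucocorticoids, and Klf15 is known in muscle for driving breakdown of branched-chain amino acids and use of fat. Their ratios were within the SD of all probe sets (0.31) and 1.08 times that of genes of like brightness (0.25). Klf9 (Entrez gene 117560) had signals of 617 in the stimulated limb and 742 in the control limb, 1.20-fold lower, while a dimmer probe set had 53.8 and 47.0, 1.14-fold higher. Klf15 (Entrez gene 85497) had 318 in the stimulated limb and 265 in the control limb, 1.20-fold higher, while its second probe set had 77.7 and 109, 1.40-fold lower. For both genes the measured probe sets disagreed in direction, so no direction can be given. Each had 1 further probe set below the floor on both arrays. That of Klf15 was designed on the same sequence as its 1.40-fold lower probe set.

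The metabolic genes linked to KLF15 were mostly slightly below 0, 16 of 19 measured, with a median of -0.16 and 0 beyond 2-fold. Trim63, a muscle ubiquitin ligase, was 1.81-fold higher (1584 in the stimulated limb, 874 in the control limb), whereas Fbxo32, the other well known one, was 1.34-fold lower. The alanine aminotransferase gene Gpt was 1.25-fold and the glucose transporter Slc2a4 1.23-fold lower (another probe set -0.64). Bcat2, which starts the breakdown of branched-chain amino acids, was at 0.11, chosen after its value was seen. Glucocorticoid receptor targets were balanced, with 8 of 16 below 0 and 8 above, a median of -0.010 and 0 beyond 2-fold. The cell cycle inhibitor Cdkn1a was 1.61-fold higher, with a second probe set at -0.01, and Hsd11b1, which regenerates active glucocorticoid, 1.59-fold higher. The phosphatase Dusp1 was 1.41-fold (another probe set -0.67) and the kinase Sgk1 1.33-fold lower. Clock genes, which share targets and timing with Klf9, Klf10 and Klf15, had a median of -0.22 over 14 measured, with 11 below 0. At the brightest probe set 0 were beyond 2-fold. The gene Clock itself, named after its values were seen, was at -0.18, with 3 other probe sets between -1.09 and -0.08. The nuclear receptors Nr1d1 and Rora were both 1.66-fold lower, the output factor Hlf 1.40-fold lower (others -0.81 and -0.63), and the core activator Bmal1 1.36-fold higher.

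**Figure D3:**
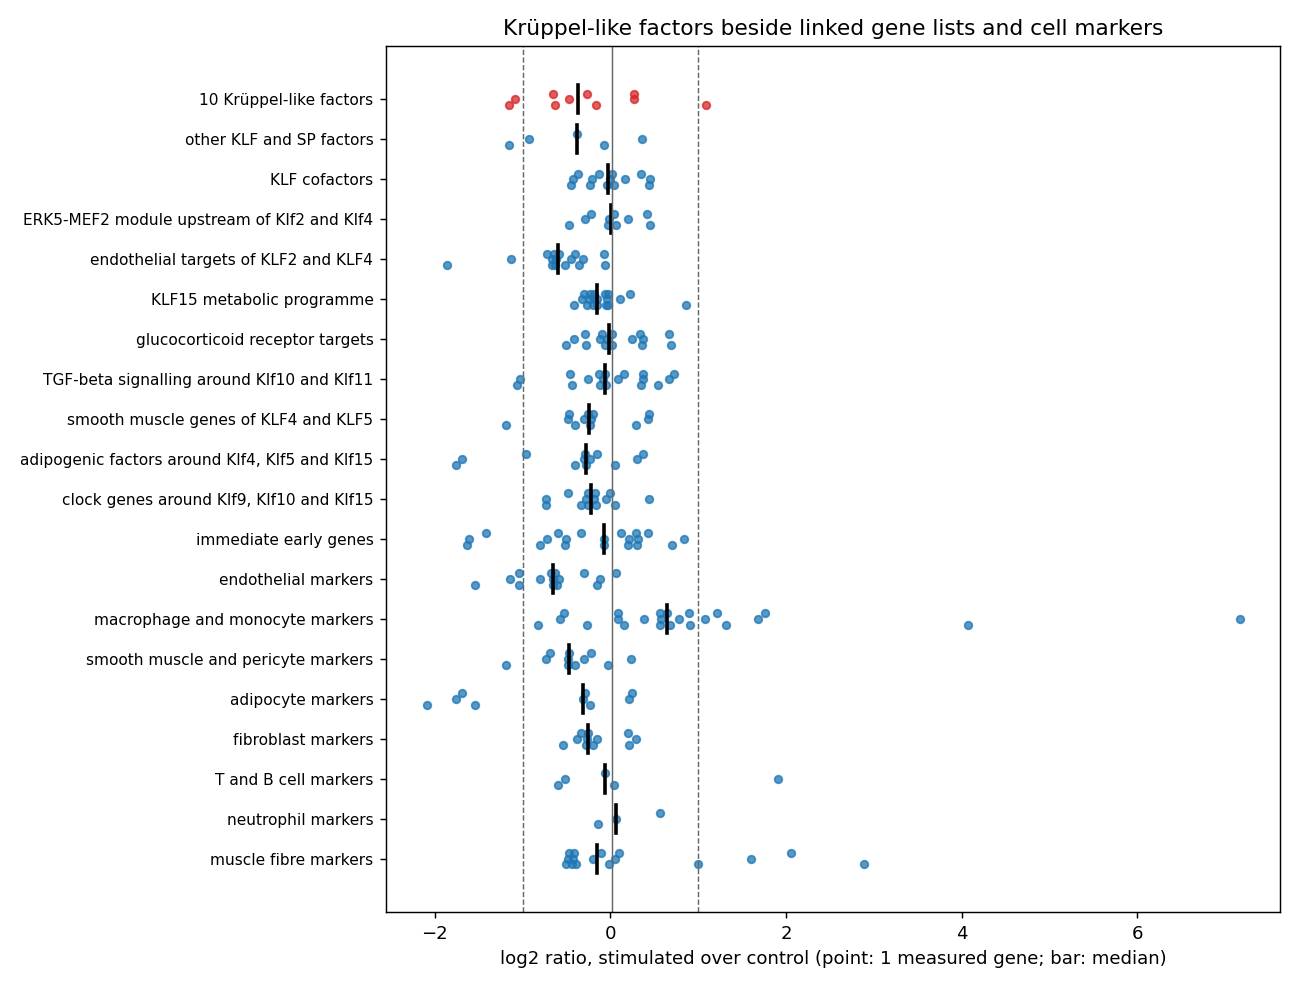
Log2 ratio (stimulated over control) of each measured gene (points) in the 10 Krüppel-like factors (red) and in 19 linked or marker lists (blue), with each list's median as a black bar, the median of all genes (0.019) as a grey line and 2-fold as dashed lines. The median of the factors (-0.37) lies between those of the endothelial lists (-0.65 and -0.60) and the lists of cofactors and glucocorticoid targets, near 0, and macrophage markers lie to the right.

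Adipogenic factors and targets around Klf4, Klf5 and Klf15 had a median of -0.28 over 12 measured, with 9 below 0 and 2 at least 2-fold lower. These were adiponectin, Adipoq (3.38-fold lower), and perilipin, Plin1 (at least 3.23-fold, but another probe set was at -0.61). The retinoid receptor Rxra was 1.94-fold and the lipogenic factor Srebf1 1.32-fold lower (another probe set -0.80). Adipocyte markers, which overlap with that list, had a median of -0.31 over 9 measured, with 7 below 0 and 2 above. Of these, 4 were at least 2-fold lower and 0 higher. The summed signal of the 9 was 1671 in the stimulated limb and 3367 in the control limb. The marker median was -0.92 when each gene took the median over its probe sets and -1.54 without suffixed probe sets. Cfd, adipsin, was 4.26-fold and the lipid droplet protein gene Cidec at least 2.91-fold lower. The 2 above 0, Dgat2 (0.25, another probe set -0.28) and Cidea (0.21), were named after their values were seen. The part of fat tissue in the values of the factors was not tested.

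Several KLFs respond to stimuli as early genes do, and early genes went both ways, with 11 of 20 measured below 0, 3 lower and 0 higher by at least 2-fold, and a median of -0.073. The zinc finger factor Egr1 was 3.10-fold lower (67.9 in the stimulated limb, 211 in the control limb), the RNA-binding protein gene Zfp36 3.06-fold and Fos 2.67-fold lower. Fosl1 was at least 1.80-fold higher.

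Macrophage and monocyte markers, cells in which Klf2 and Klf4 are also expressed, were higher: 19 of 23 measured lay above 0, 7 were higher and 0 lower by at least 2-fold, with a median of 0.64. The summed signal was 18867 in the stimulated limb and 8561 in the control limb. Spp1, osteopontin, was at least 144-fold higher, the glycoprotein gene Gpnmb 16.9-fold, galectin-3, Lgals3, 3.39-fold, and the adaptor Tyrobp 3.22-fold higher. The complement genes C1qa, C1qb and C1qc, named after their values were seen, were 1.44-fold, 1.49-fold and 1.77-fold lower. Klf2 and Klf4 lay on the other side of 0 from the median of this list. T and B cell markers had 5 of 14 listed genes measured, 3 of them below 0, with a median of -0.059, 1 at least 2-fold higher and a summed signal of 442 in the stimulated limb and 519 in the control limb. Cd8a was at least 3.76-fold higher (another probe set 1.14), Cd4 1.51-fold lower, the lipid receptor S1pr1, which KLF2 is known to activate, 1.43-fold lower, and Cd3g at least 1.04-fold lower. S1pr1 also belongs to the list of endothelial targets. Its signals, 270 in the stimulated limb and 385 in the control limb, made up most of the sum of these markers. That sum therefore mainly describes S1pr1. Cd3e, Cd3d, Cd79b, Ms4a1 and Il7r were below the floor on both arrays. Neutrophil markers had 3 of 12 measured, with a median of 0.065, 0 beyond 2-fold and a summed signal of 198 in the stimulated limb and 182 in the control limb. The receptor Csf3r was at least 1.47-fold higher, S100a9 was at -0.14 and Lcn2 at 0.07, while S100a8, Cxcr2, Camp, Mmp8 and Mmp9 were below the floor on both arrays.

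Fibroblast markers had a median of -0.26 over 11 measured, with 8 below 0 and 0 beyond 1.5-fold, and a summed signal of 18657 in the stimulated limb and 22223 in the control limb. The protease Fap was 1.46-fold lower, the collagens Col1a2 (1.30-fold, another probe set -0.31) and Col3a1 (1.26-fold) were lower, while the receptor Pdgfra was 1.22-fold higher. Muscle fibre markers had a median of -0.15 over 16 measured, with 10 below 0, 3 higher and 0 lower by at least 2-fold, and a summed signal of 93554 in the stimulated limb and 118528 in the control limb. The higher ones were the slow-fibre genes Tnnc1 (7.38-fold), Tnnt1 (at least 4.16-fold) and Myh7 (at least 3.04-fold, but another probe set was at 0.19), followed by the oxidative fast myosin Myh2 (just under 2-fold).

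Other members of the family, with the SP factors that bind the same GC boxes, lay mostly below 0. Of 17 listed, 5 were measured, 4 lay below 0, 1 was lower and 0 higher by at least 2-fold, with a median of -0.38. With a floor at the 75th percentile only Sp1 stayed measured, at 0.37. Sp2 had signals of 32.3 in the stimulated limb and 72.1 in the control limb, 2.23-fold lower, from 1 probe set. Klf7, a factor of neurons and of fat cells, had 27.8 in the stimulated limb and 52.7 in the control limb, 1.89-fold lower, and its 2 other measured probe sets were at -0.70 and -0.47. Klf16 had 54.7 in the stimulated limb and 71.1 in the control limb, 1.30-fold lower. Sp1, expressed in nearly all cells, had 115 in the stimulated limb and 89.6 in the control limb, 1.29-fold higher, with a further probe set of 90.1 and 100.1, 1.11-fold lower. Sp4, near the floor, had 12.1 in the stimulated limb and 20.8 in the control limb, at least 1.05-fold lower, and Klf1, Klf12 and Sp3 lay below it on both arrays. The remaining 9 listed genes were not analysed here.

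**Figure D4:**
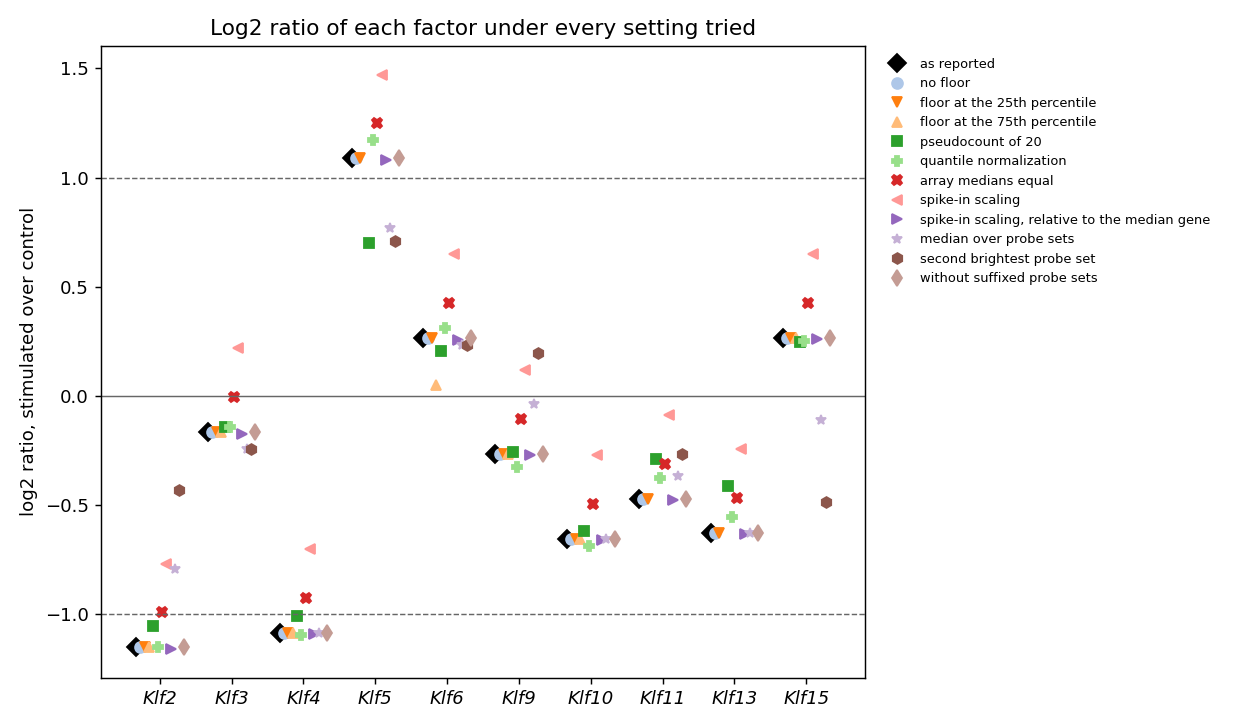
Log2 ratio (stimulated over control) of each of the 10 Krüppel-like factors as reported (black diamond) and under 11 other settings (coloured symbols; a factor that a setting left unmeasured has none), with dashed lines at 2-fold. Klf2 and Klf4 stay below 0 and Klf5 above 0 throughout, while Klf3, Klf9 and Klf15 have points on both sides.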

How the data were processed

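Total RNA of 2 muscle samples was hybridised to 1 Affymetrix array each, after silica column purification and single-cycle biotin labelling, per the labels' protocols. The deposited values are linear signal intensities that the authors made with MAS5, as the submitters' processing notes state. This algorithm merges the probes of a probe set into 1 signal and scales each array by 1 factor. The sources used here do not give its version, scaling target or detection calls. The mean signal after trimming 2% at each end was 76.5 on both arrays. Of 31099 probe sets, 57 were manufacturer's controls. Among the others, 20826 had 1 gene symbol in the platform annotation. The RefSeq gene table (GRCr8) changed 0 symbols. Precision is limited by having 1 array per limb.

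Ratios, counts and medians were computed with numpy 2.4.6 and pandas 2.3.3, and the counting was tested on simulated data. A probe set counted as measured if its signal reached the floor on either array, the floor being the 50th percentile of all non-control signals. Genes of a list below the floor on 1 array enter its median and its counts at their bound. The 10 factors, the 19 lists and the naming rule (every factor and other family gene, and up to 4 genes of each list with the largest absolute ratio, with exceptions stated in the text) were chosen with earlier results of these data known. With 2 samples a pattern is 1 ratio, so no genes of like pattern are named. Alternatives covered the floor, a pseudocount of 20, the scaling and the choice of probe set.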

Additional observations from a re-analysis of the deposited data

How the results depend on the processing

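A value counted as unchanged where it stayed within the probe set SD of 0.31 (a count: within 1.5-fold), which held for 329 of 389 values from 36 results under 11 alternatives. No value that was past 2-fold as reported changed sign. The T and B cell median, -0.059 as reported, was 1.14 with the second brightest probe set, which only Cd8a of that list had. Of the 10 factors, 7 kept their sign under every alternative that gave them a value, and Klf3, Klf9 and Klf15 did not. The floor at the 75th percentile left 7 factors measured, and 7 had a second probe set. No paired analysis was possible because each limb has 1 array. The values of the dim genes Klf5, Klf11 and Klf13 are limited by signals near the floor.

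Spike-in scaling, which adds about the shift of the median gene (0.39) to every ratio, gave -0.77 for Klf2, 0.22 for Klf3, -0.70 for Klf4, 1.47 for Klf5, 0.65 for Klf6, 0.12 for Klf9, -0.27 for Klf10, -0.088 for Klf11, -0.24 for Klf13 and 0.65 for Klf15. The median over the factors was 0.015, with 0 lower by at least 2-fold, 2 lower and 3 higher by at least 1.5-fold and 5 above 0, against 0.441%, 1.81%, 28.3% and 84.9% of all genes in that scaling. List medians under it were 0.36 (cofactors), 0.39 (ERK5-MEF2 module), -0.18 (endothelial targets), 0.23 (KLF15 programme), 0.37 (glucocorticoid targets), 0.33 (TGF-beta), 0.14 (smooth muscle genes), 0.10 (adipogenic), 0.12 (clock), 0.31 (early genes), -0.27 (endothelial markers), 0.99 (macrophage), -0.10 (smooth muscle and pericyte), 0.074 (adipocyte), 0.13 (fibroblast), 0.45 (neutrophil) and 0.23 (muscle fibre). Other KLF and SP factors were at -0.27 and T and B cell markers at 0.079.

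With equal array medians 0 factors were lower by at least 2-fold and 2 by at least 1.5-fold, against 0.925% and 3.83% of all genes. The median over probe sets gave -0.79 for Klf2, 0.77 for Klf5 and -0.11 for Klf15. Under it 0 factors were at least 2-fold higher and 1 lower, against 1.31% and 1.25% of all genes. Adipocyte markers were at -0.92 with it and at -1.54 without suffixed probe sets. The second brightest probe set gave -0.43 for Klf2, 0.71 for Klf5, 0.19 for Klf9 and -0.49 for Klf15. Of the 7 factors with such a probe set, 0 were at least 2-fold higher or lower (0.963% and 2.62% of all genes). At least 1.5-fold lower were 0 (12.1%), while 4 lay below 0 and 3 above (35.8% of all genes above). For lists, the second brightest probe set gave medians of -0.56 (glucocorticoid targets), -0.64 (adipogenic) and -0.81 (clock), against -0.13 for all genes. These rest only on the listed genes that have a second measured probe set. The values of 1.22 (macrophage) and 1.14 (T and B cell) are Laptm5 and Cd8a alone, the only such genes of their lists. A pseudocount of 20 gave 0.70 for Klf5 and 0 factors at least 2-fold higher (0.556% of all genes). With the floor at the 75th percentile 7 factors were measured, and 0 were at least 1.5-fold or 2-fold higher (4.66% and 0.894% of all genes). Under it Sp1 (0.37) was the only measured gene of the other KLF and SP factors. S1pr1 (-0.51) was the only measured T and B cell marker. With no floor, 1129 and 1279 of 14217 genes were at least 2-fold higher and lower. These counts were 474 and 596 of 12768 with a floor at the 25th percentile and 52 and 49 of 5817 at the 75th. With the pseudocount they were 79 and 87 of 14217. With the second brightest probe set they were 25 and 68 of 2595. The cause of these shifts was not tested.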
